A study of Drosophila melanogaster with 6 samples.

Results

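Expression of 10 genes of fat handling was followed in the body wall of Drosophila larvae after a bout of forced muscle contraction. They were taken from the gene count table by a fixed list of symbols grouped by role, and all 10 were found among its 17477 genes: the lipoprotein receptors LpR1 and LpR2, the acyl-CoA synthetase gene Acsl, the mitochondrial import gene whd, the perilipins Lsd-1 and Lsd-2, the lipases bmm and Hsl, the hormone receptor gene AkhR, and Agpat2 of glycerolipid synthesis. The study trained larvae by optogenetics and sequenced polyA-selected mRNA at the end of the bout, from dissected body wall muscles with their cuticle. Control libraries (n = 3) came from w1118 larvae, and exercised libraries (n = 3) from OK6-Gal4bc > CsChrimbc larvae, in which a Gal4 driver places the light-gated channel CsChrimson in motor neurons. Both lines of the cross had been backcrossed to the same w1118 stock, and OK6-Gal4 is also active in some CCAP neurons, so the stimulus is not limited to motor neurons. Larvae of both groups were in the middle of the third larval instar, of mixed sex, fed all-trans retinal (ATR) overnight, held in a dilute sucrose solution without other food, and exposed to the 2 h light program. Because the controls lacked both the driver and the channel, exercise and genotype cannot be told apart in any difference given here. The libraries are described as independent biological replicates, and the sources used here do not give the number of larvae behind each.

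In insects, fat travels through the hemolymph on lipophorin, a lipoprotein made by the fat body, the organ that combines roles of liver and adipose tissue. Cells take up its cargo with the help of lipophorin receptors, activate the fatty acids to acyl-CoA, and either esterify them into triglyceride stored in droplets coated by perilipins or pass them through carnitine palmitoyltransferase into mitochondria for oxidation. Droplet fat is released by lipases, under the control of adipokinetic hormone, a peptide with a role like that of glucagon, which acts on the fat body through its receptor.

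Of the 10 genes, 3 were higher in exercised larvae (Lsd-1, AkhR and Agpat2), 3 were lower (LpR1, whd and Acsl), and 4 did not pass the test (LpR2, Lsd-2, bmm and Hsl). A gene was called changed at a Benjamini-Hochberg adjusted p below 0.05 over all 9127 tested genes in edgeR's quasi-likelihood test. By that rule 18.8% of all tested genes changed, 10.3% upward and 8.52% downward. With upper-quartile scaling in place of TMM, higher calls made up 43.5% of all calls against 54.6%, and no call among the 10 genes changed. The median log2 fold change of the 10 genes was -0.20 against -0.015 over all tested genes, and the median of its absolute size was 1.03 against 0.23. The lowest and highest CPM (counts scaled by library size) of the groups did not overlap for 8 of the 10 genes, against 39.2% of all tested genes, the exceptions being Lsd-2 and Hsl. These values describe a short list with no test of the list as a whole. The 10 genes were chosen with earlier results of these data known. A larger share of changed genes than over all tested genes can follow from that choice alone.

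**Figure D1:**
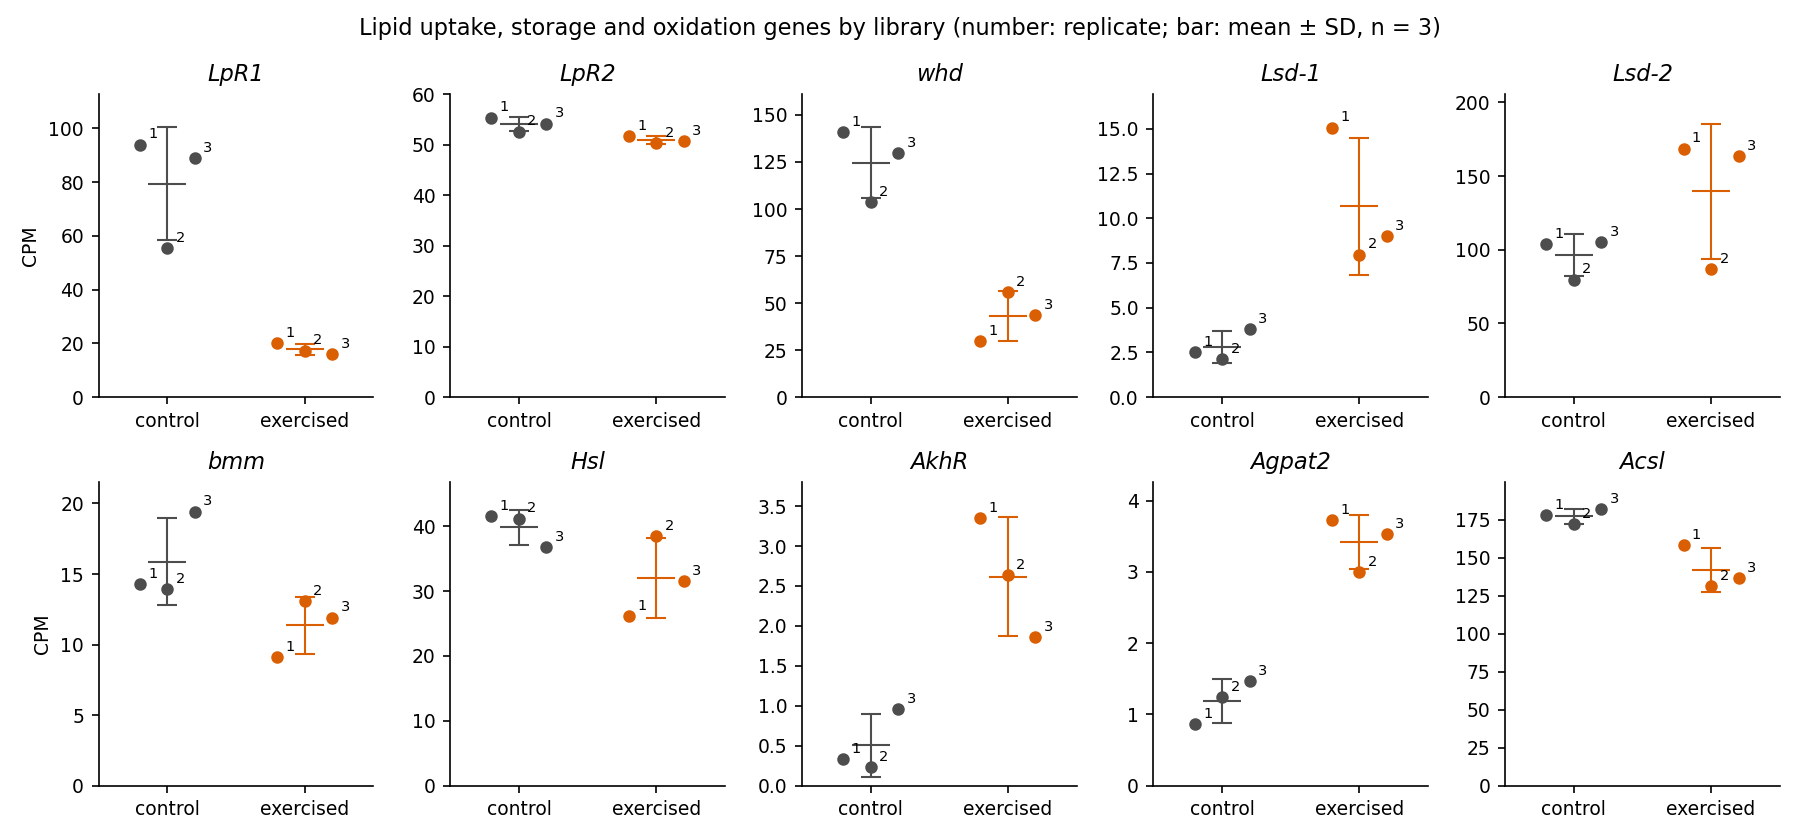
CPM of each of the 10 genes in the 3 control and the 3 exercised libraries, 1 panel per gene with its own axis from 0. Points are libraries marked by replicate number, and bars are the mean with its SD; LpR1 and whd lie wholly below their controls and Lsd-1, AkhR and Agpat2 wholly above.

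Total counts ranged from 19625425 to 23953341 per library, so that depth was alike in both groups. Summed over 13 muscle markers, CPM ran from 149038 to 166592 in controls and from 151666 to 166068 in exercised libraries, overlapping ranges that include the labelled tissue's defining genes such as Mhc. Fat body transcripts stood apart in control replicate 3. The sum of 14 fat body markers, of which 1 was at 0 in every library, was 584, 445 and 3668 CPM in control replicates 1, 2 and 3, and 6790, 6164 and 5092 CPM in the exercised replicates. Lsp1gamma, a larval storage protein gene, supplied much of the exercised sum, at 2408, 2091 and 1654 CPM against 2.21, 2.54 and 1.78 CPM in controls. Without it, a sum chosen after the data were seen, control replicate 3 stood at 3667 CPM, inside the exercised range of 3438 to 4382 CPM, while the other controls stood at 582 and 443 CPM. The pattern was carried by part of the list: 8 of the 14 markers were highest among the controls in control replicate 3, and 6 of these reached at least the lowest exercised library there. Among them, apolpp, which encodes the lipophorin backbone, was at 63.1, 73.4 and 462 CPM in controls and 495, 484 and 359.7 CPM in exercised libraries (edgeR adjusted p = 0.431), and the storage protein gene Lsp1beta was at 267, 206 and 1902 CPM against 2417, 2103 and 1759 CPM (adjusted p = 0.384). Other markers did not follow it: Sdr was at 4.46, 3.55 and 2.51 CPM in controls and Ugt36A1 at 5.16, 3.55 and 2.92 CPM, both lowest in control replicate 3. Fbp1, a storage protein receptor gene, had 3 counts over all controls against 355 over the exercised libraries. Markers of hemocytes, summed over 8 genes, ranged from 706 to 1218 CPM in controls and from 1228 to 1634 CPM in exercised libraries. Sums for oenocytes, the epidermis, neurons, glia, trachea and midgut overlapped between the groups. In whole dissections such as these, fewer cells of a type and less RNA per cell cannot be told apart.

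The receptor LpR1 fell further than any other of the 10 genes, while its neighbor LpR2 did not pass the test. LpR1 (FBgn0066101) and LpR2 (FBgn0051092) encode lipophorin receptors of the LDL receptor family. They lie on the same strand of chromosome arm 3R, LpR1 from 25741348 to 25763105 and LpR2 from 25698727 to 25740465 in release 6 of the genome, with 882 bp between the annotated genes. LpR1 was at 94.0, 55.5 and 89.0 CPM in the control libraries and at 20.1, 17.3 and 16.0 CPM in the exercised ones. Every exercised library was thus far below the lowest control, although control replicate 2 was itself low. The mean went from 79.5 ± 20.9 to 17.8 ± 2.09 CPM (SD, n = 3 each), a log2 fold change of -2.16 (SE 0.21, 95% interval -2.67 to -1.65, edgeR adjusted p = 0.00127). Only 0.745% of tested genes, LpR1 included, had a log2 fold change as low or lower. LpR1 kept its call under all 14 alternative settings fixed for it, with log2 fold changes from -2.36 to -2.02.

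LpR2 was at 55.3, 52.6 and 54.1 CPM in controls and at 51.7, 50.3 and 50.7 CPM in exercised libraries. The ranges did not overlap, but the step was small, from 54.0 ± 1.39 to 50.9 ± 0.724 CPM, with a log2 fold change of -0.086 (SE 0.068, adjusted p = 0.425). Its 95% interval of -0.24 to 0.071 left no room for a fall near that of LpR1. Per kilobase of exon, the LpR1 level was 1.41, 0.877 and 1.37 times that of LpR2 in the control libraries, and 0.323, 0.286 and 0.262 times in the exercised libraries. The ratio of the receptor transcripts therefore passed from near equal on average, 1.22 ± 0.296, to a clear excess of LpR2, 0.291 ± 0.0306. The groups did not overlap, although the control libraries lay on both sides of equal. Exon length here covers all annotated exons of a gene, and which transcript forms were expressed was not examined. How near to equal the receptors stood is therefore approximate. In control replicate 3, rich in fat body transcripts, LpR1 was 0.948 times its level in control replicate 1 and 1.6 times that in control replicate 2. The lowest exercised library was at 0.18 times the level of control replicate 3. With control replicate 3 as the lone control, an alternative chosen after the data were seen that borrows the spread of the exercised libraries, LpR1 was still called (log2 fold change -2.31, adjusted p = 0.00462), the only one of the 10 genes that was.

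Among the genes that activate fatty acids and bring them into mitochondria, whd fell strongly and Acsl slightly. whd (FBgn0261862, withered, chromosome arm 2R, 10469473 to 10478567) encodes carnitine palmitoyltransferase 1, the gatekeeper of fatty acid entry into mitochondria. It was at 140.7, 103.6 and 129.7 CPM in controls and at 29.6, 56.0 and 43.7 CPM in exercised libraries. The highest exercised library, replicate 2, remained well below the lowest control. The mean fell from 124.7 ± 19.1 to 43.1 ± 13.2 CPM, a log2 fold change of -1.53 (SE 0.24, 95% interval -2.12 to -0.94, edgeR adjusted p = 0.00857). It passed under all 14 alternatives, at adjusted p values up to 0.0466. With control replicate 3 as the lone control the log2 fold change was -1.58, but the adjusted p was 0.0821. Exons of whd overlap those of CG11777 and of an antisense RNA on the other strand over 353 bp. The sources used here do not say whether counting used strand, and CG11777 itself was at 5.58 ± 1.01 CPM in controls and 5.38 ± 1.14 CPM in exercised libraries, far below whd in both.

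Acsl (FBgn0263120, chromosome arm 2R, 8665813 to 8683022) encodes a long-chain acyl-CoA synthetase, which activates fatty acids both for storage and for oxidation. It was at 178.2, 171.8 and 181.7 CPM in controls and at 158.1, 131.1 and 136.5 CPM in exercised libraries. The groups did not overlap, and the controls lay closer together than the exercised libraries. The mean went from 177.2 ± 5.00 to 141.9 ± 14.3 CPM, with a log2 fold change of -0.32 (SE 0.090, 95% interval -0.53 to -0.11, edgeR adjusted p = 0.0448). This call was the weakest of the 6. It held under 6 of 14 alternatives, with adjusted p values from 0.0161 to 0.176, and was lost when any library other than exercised replicate 1 was left out (0.117 without control replicate 3, 0.176 without exercised replicate 3). Per kilobase of exon, whd was 1.22, 0.931 and 1.10 times Acsl in the control libraries and 0.289, 0.659 and 0.495 times in the exercised ones. The import gene thus went from the level of the synthetase gene to below it in every exercised library.

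The perilipins, proteins of the droplet surface, were measured at very different levels and only the scarcer one passed the test. Lsd-1 (FBgn0039114, chromosome arm 3R, 23763857 to 23766662) encodes perilipin 1, which coats fat body droplets and takes part in hormone-stimulated lipolysis. It was at 2.50, 2.12 and 3.79 CPM in controls and at 15.1, 7.96 and 9.02 CPM in exercised libraries. Every exercised library was above every control, with exercised replicate 1 well above the other two. From 2.80 ± 0.875 to 10.7 ± 3.83 CPM, the log2 fold change was 1.93 (SE 0.31, 95% interval 1.19 to 2.67, edgeR adjusted p = 0.00684). All 14 alternatives kept the call, at log2 fold changes from 1.60 to 2.22. Its exons overlap those of CG10214 over 144 bp on the other strand, and CG10214 was at 7.37 ± 1.72 and 7.75 ± 2.13 CPM, without the step seen in Lsd-1.

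Lsd-2 (FBgn0030608, chromosome X, 15069127 to 15076220) encodes perilipin 2, known for guarding stored fat against lipolysis. It was at 103.8, 79.8 and 105.4 CPM in controls and at 168.6, 86.9 and 163.5 CPM in exercised libraries. Exercised replicate 2 fell inside the control range while the other exercised libraries lay well above it. The mean went from 96.3 ± 14.3 to 139.7 ± 45.8 CPM, with a log2 fold change of 0.54 (SE 0.27, 95% interval -0.12 to 1.19, edgeR adjusted p = 0.228). A single library decided this outcome: without exercised replicate 2 the log2 fold change was 0.79 and the adjusted p 0.00743, and over all alternatives the adjusted p ran from 0.00743 to 0.491. Per kilobase of exon, Lsd-2 exceeded Lsd-1 by 17.7, 16.0 and 11.8 times in controls and by 4.77, 4.65 and 7.73 times in exercised libraries. Lsd-2 stayed the more abundant perilipin transcript in every library, by a ratio that went from 15.2 ± 3.02 to 5.72 ± 1.74.

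**Figure D2:**
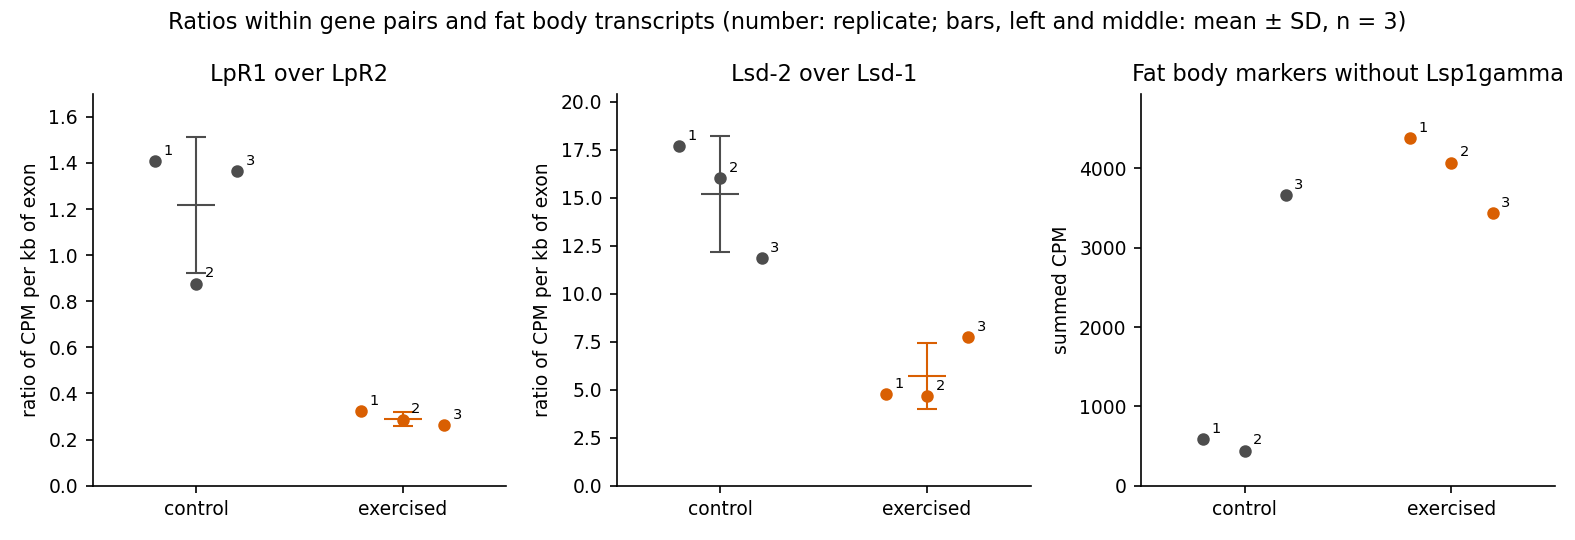
Ratio of LpR1 to LpR2 (left) and of Lsd-2 to Lsd-1 (middle), both in CPM per kb of exon, and the summed CPM of 13 fat body markers without Lsp1gamma (right), in each library. Points carry the replicate number and the bars in the left and middle panels are mean ± SD (n = 3); both ratios separate the groups, whereas the fat body sum of control replicate 3 (3667 CPM) lies among the exercised libraries.

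Neither lipase gene passed the test, and both were lower on average. The gene bmm (FBgn0036449, brummer, chromosome arm 3L, 14776496 to 14786412) encodes the fly relative of adipose triglyceride lipase, which starts the breakdown of stored triglyceride. Its level was 14.3, 13.9 and 19.4 CPM in controls and 9.13, 13.1 and 11.9 CPM in exercised libraries. The groups came close but did not overlap. The log2 fold change was -0.48 (SE 0.18, 95% interval -0.90 to -0.064, edgeR adjusted p = 0.105), from means of 15.9 ± 3.06 and 11.4 ± 2.03 CPM, and no alternative called it (adjusted p from 0.0718 to 0.249). Hsl (FBgn0034491, chromosome arm 2R, 20257650 to 20261726), the hormone-sensitive lipase gene, was at 41.6, 41.2 and 36.7 CPM in controls and at 26.1, 38.4 and 31.6 CPM in exercised libraries. Here exercised replicate 2 lay among the controls. The log2 fold change was -0.31 (SE 0.14, 95% interval -0.64 to 0.012, adjusted p = 0.164), and without exercised replicate 2 it was -0.46 with an adjusted p of 0.0314, the only alternative of 14 that called Hsl. Hsl exceeded bmm per kilobase of exon by 1.84, 1.87 and 1.20 times in controls and by 1.81, 1.86 and 1.68 times in exercised libraries. The ratio of the lipase transcripts therefore overlapped between the groups.

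AkhR and Agpat2 were the scarcest transcripts of the set, and both rose. AkhR (FBgn0025595, chromosome arm 2L, 6711286 to 6716186) encodes the G-protein-coupled receptor for adipokinetic hormone. Its raw counts were 8, 5 and 21 in the control libraries and 70, 51 and 40 in the exercised ones. That is 0.328, 0.231 and 0.959 CPM against 3.35, 2.64 and 1.86 CPM, and control replicate 3 was the highest control by far. The log2 fold change was 2.36 (SE 0.52, 95% interval 1.16 to 3.57, edgeR adjusted p = 0.0180), the largest rise among the 10 genes and the least precise. It was called under 9 of the 13 alternatives that tested it, and lost without control replicate 1 (0.0569), control replicate 2 (0.0546) or exercised replicate 1 (0.0511). Without control replicate 3 the log2 fold change was 3.20.

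Agpat2 (FBgn0026718, chromosome arm 2L, 8449691 to 8463994) encodes an acyltransferase that makes phosphatidic acid, a precursor of both triglyceride and phospholipid. Counts were 21, 27 and 32 in the control libraries and 78, 58 and 76 in the exercised ones. In CPM the level went from 0.860, 1.25 and 1.46 to 3.73, 3.00 and 3.53, with a narrow spread and a clear gap between the groups. The log2 fold change was 1.52 (SE 0.26, 95% interval 0.93 to 2.12, edgeR adjusted p = 0.00669), and all 13 alternatives that tested it kept the call.

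**Figure D3:**
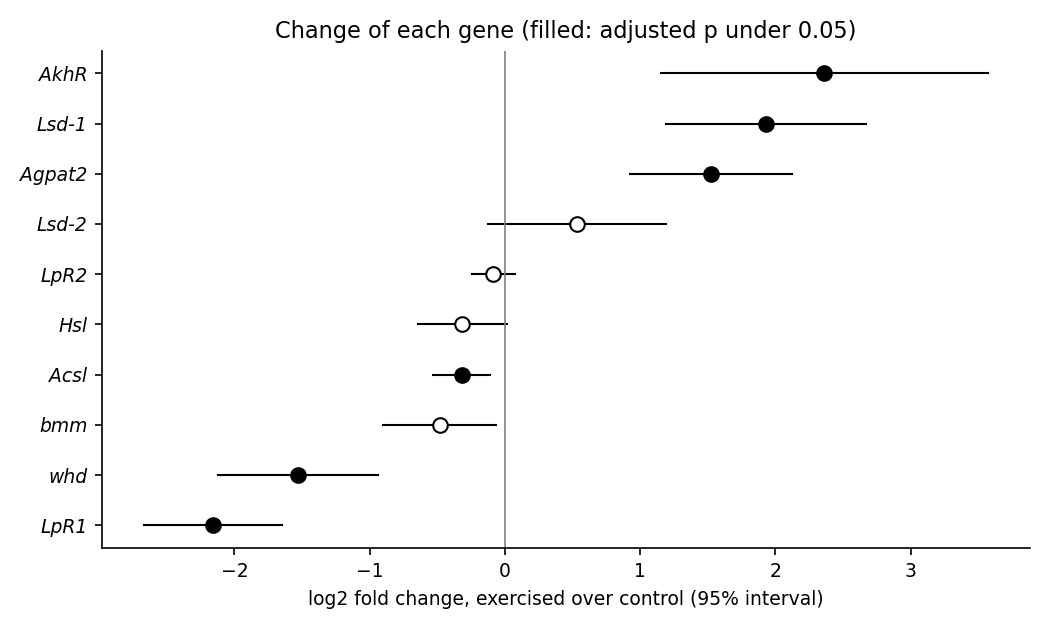
Log2 fold change (exercised over control, x axis) of each of the 10 genes with its 95% interval from the edgeR fit. Filled points passed an adjusted p below 0.05; LpR1 (-2.16) and AkhR (2.36) mark the ends, and the interval of AkhR is the widest.

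The 3 genes that rose were also higher in control replicate 3, the control rich in fat body transcripts, than in the other controls. Its level was 1.52 and 1.79 times that of control replicates 1 and 2 for Lsd-1, and 2.93 and 4.16 times for AkhR. For Agpat2 it was 1.70 and 1.17 times, where the fat body sum without Lsp1gamma was 6.30 and 8.28 times as high. This was not particular to the genes that rose. By the same measure bmm was at 1.36 and 1.39 times, Lsd-2 at 1.02 and 1.32 times, and Acsl at 1.02 and 1.06 times. Of these, bmm and Acsl were lower on average in exercised libraries. The lowest exercised library was at 2.10, 1.94 and 2.05 times control replicate 3 for Lsd-1, AkhR and Agpat2. For the fat body sum without Lsp1gamma it was at 0.938 times control replicate 3. With Lsp1gamma kept in, the sum was 3668 CPM in control replicate 3 and 5092 CPM in the lowest exercised library. With control replicate 3 as the lone control, the log2 fold changes were 1.502 for Lsd-1, 1.45 for AkhR and 1.23 for Agpat2, at adjusted p values of 0.140, 0.162 and 0.107. With control replicate 3 left out, all 3 were called, as were LpR1 and whd, and Acsl was not. The hemocyte sum given above also moved with the groups, and the part of fat body and hemocyte transcripts in these results was not tested.

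Ordered by level per kilobase of exon, the set changed its leading genes between the groups. The order between genes is approximate, because length covers all annotated exons and the transcript forms expressed were not examined. In controls whd and Acsl came first, at 39.3 and 36.2 CPM per kb on average, with overlapping ranges. Lsd-2 followed at 20.9 CPM per kb, then LpR1, Hsl and LpR2 at 11.98, 10.3 and 9.80 CPM per kb, 3 genes whose ranges overlapped. bmm stood at 6.52 CPM per kb, and Lsd-1, Agpat2 and AkhR closed the order at 1.43, 0.553 and 0.159 CPM per kb without overlap. In exercised libraries Lsd-2 and Acsl led at 30.4 and 28.9 CPM per kb, with overlapping ranges, and whd came after them at 13.6 CPM per kb. LpR2 and Hsl held 9.23 and 8.32 CPM per kb, and the lowest whd library, exercised replicate 1, reached down to both. Lsd-1 at 5.45 CPM per kb now overlapped Hsl above it and bmm at 4.67 CPM per kb below it. LpR1 dropped to 2.69 CPM per kb, below bmm in every exercised library, and only Agpat2 at 1.59 and AkhR at 0.821 CPM per kb remained lower.

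**Figure D4:**
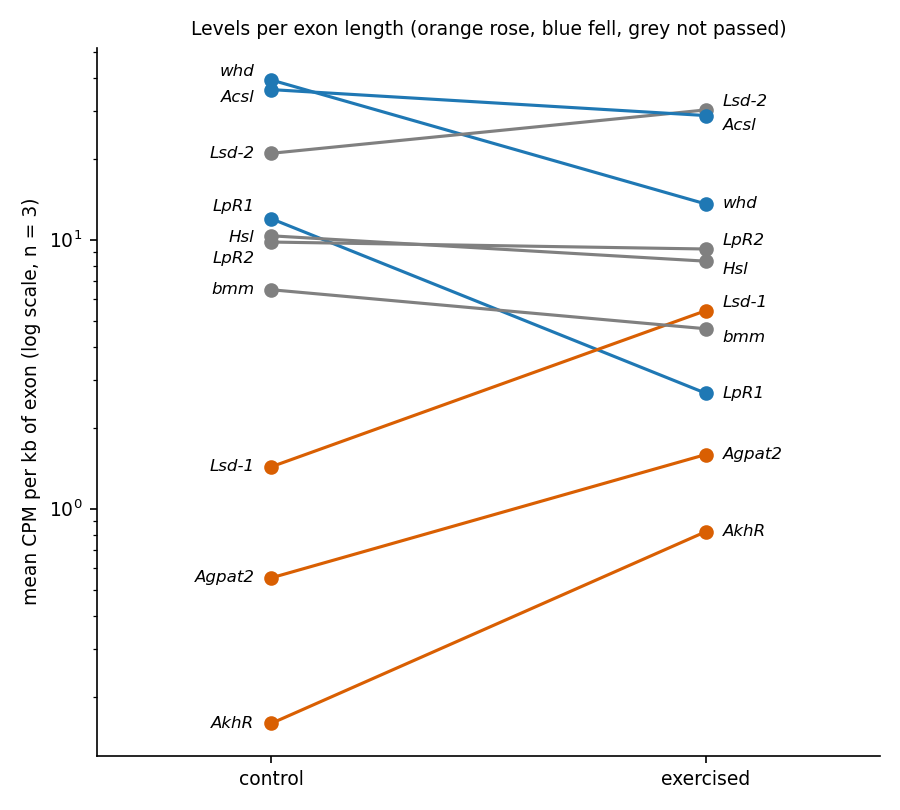
Mean level of each of the 10 genes in CPM per kb of exon (log axis) in control and exercised libraries (n = 3 each). Orange lines rose, blue lines fell and grey lines did not pass the test; whd goes from 39.3 to 13.6, LpR1 from 11.98 to 2.69, and Lsd-1 rises from 1.43 to 5.45.

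The exercised libraries did not deviate alike. Exercised replicate 1 lay farthest from the control mean, in the direction of the difference, for 7 of the 10 genes (whd, Lsd-1, Lsd-2, bmm, Hsl, AkhR and Agpat2), against 43.6% of all tested genes. Exercised replicate 2 lay nearest for 6 of the 10 (the same genes without AkhR), against 44.6%. LpR1, LpR2 and Acsl followed another order, with exercised replicate 1 nearest to the controls.

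In the gene lists around these 10, the share of genes called differed from list to list, and is read here against the 18.8% called over all tested genes. Of 11 tested lipoprotein and lipid carrier genes, 0 rose and 1 fell (median log2 fold change 0.0029). At an unadjusted p below 0.05 the count was also 0 higher and 1 lower, and both DESeq2 and limma-voom called 0 higher, but 2 were higher without control replicate 3. The gene that fell was GLaz, a lipocalin of the apolipoprotein D type, at 3.07, 2.49 and 3.24 CPM in controls and 0.621, 1.14 and 0.790 CPM in exercised libraries (log2 fold change -1.79, SE 0.29, edgeR adjusted p = 0.00575). The lipid transporter gene Npc1a, named after its values were seen, was at 81.4 ± 6.43 and 78.6 ± 8.99 CPM (adjusted p = 0.788). Of 4 further LDL receptor family genes, 1 rose and 0 fell. It was mgl, the fly megalin, which went from 151.7, 160.5 and 170.2 CPM to 214, 215.4 and 241.8 CPM, in the opposite direction to LpR1 (log2 fold change 0.48, SE 0.085, adjusted p = 0.00822). LRP1, named after its values were seen, from 63.5 ± 2.61 to 53.1 ± 3.67 CPM, did not pass the test (adjusted p = 0.0633), and the unadjusted count was 1 higher and 2 lower. Without exercised replicate 2, 1 gene of this family fell.

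Of 7 tested genes for triglyceride lipases and droplet turnover, 2 rose and 1 fell (42.9% called, median 0.32), and 1 rose without control replicate 2 or exercised replicate 3. sturkopf, which encodes a droplet-associated hydrolase, fell from 109.8, 111.5 and 129.5 CPM to 64.1, 49.4 and 59.6 CPM (log2 fold change -1.02, SE 0.12, edgeR adjusted p = 0.00144). The groups were far apart, and the call held with each library left out. dob, a relative of brummer, rose from 0.737, 0.415 and 0.731 CPM to 2.20, 2.22 and 1.72 CPM (log2 fold change 1.69, SE 0.32, adjusted p = 0.0106). CG5162, a predicted lipase, rose less (log2 fold change 0.48, SE 0.11, adjusted p = 0.0203), a call lost without control replicate 1 or 2 or exercised replicate 3 (adjusted p up to 0.087). The lipase gene puml did not pass (0.32, adjusted p = 0.353). Among 8 genes of droplet structure and phospholipid supply, 3 rose and 0 fell (37.5% called, median 0.35, unadjusted 3 and 1). They were Lpin, a phosphatidate phosphatase gene, and Pcyt1 and Pcyt2, whose enzymes make the CDP-activated head groups of phospholipids. Pcyt1 went from 68.7, 42.3 and 67.5 CPM to 123.8, 90.9 and 124.9 CPM (log2 fold change 0.93, SE 0.22, adjusted p = 0.0299), and Pcyt2 from 2.95, 1.85 and 2.51 CPM to 11.9, 4.34 and 8.00 CPM (1.73, SE 0.38, adjusted p = 0.0223). Both shared the low exercised replicate 2 seen in Lsd-2. Lpin went from 58.2, 46.3 and 57.0 CPM to 86.1, 68.9 and 85.7 CPM (0.58, SE 0.12, adjusted p = 0.0174). These 3 calls rested on few libraries: Lpin was lost without control replicate 2 or exercised replicate 3, Pcyt1 without control replicate 3 or exercised replicate 1 or 3, and Pcyt2 without any 1 control or exercised replicate 3 (adjusted p up to 0.0825, 0.103 and 0.0809). The count of higher genes in this list was 1 without control replicate 2 and 0 without exercised replicate 3.

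Of 22 tested genes of fatty acid and triglyceride synthesis, 5 rose and 2 fell (31.8% called, median -0.0084). The smallest adjusted p belonged to mino, a glycerol-3-phosphate acyltransferase gene, which fell from 41.9, 48.5 and 40.7 CPM to 20.5, 23.1 and 20.6 CPM (log2 fold change -1.03, SE 0.10, edgeR adjusted p = 0.000805). mino and Agpat2 catalyze successive acyl transfers on the way to phosphatidic acid, and their transcripts moved in opposite directions. Related acyltransferase genes, named here after their values were seen, did not repeat this contrast. Gpat4 rose (0.30, SE 0.083, edgeR adjusted p = 0.0411), as did Agpat4 (0.79, SE 0.18, adjusted p = 0.0221). Both calls were lost with most single libraries left out (adjusted p up to 0.13 and 0.0737). Agpat1 (0.16, adjusted p = 0.883) and Agpat3 (0.096, adjusted p = 0.517) did not pass. SCAP, the escort of the lipogenic factor SREBP, fell from 73.6, 80.4 and 79.9 CPM to 43.8, 56.8 and 58.3 CPM (-0.56, SE 0.12, adjusted p = 0.0154, lost at 0.0563 without control replicate 2). SREBP itself was at 315 ± 30.0 and 293 ± 5.58 CPM (adjusted p = 0.446). FASN1, the fatty acid synthase gene, named here after its values were seen, stood at 122.1, 130.3 and 129.6 CPM in controls and at 627.6, 211.9 and 402.3 CPM in exercised libraries (1.70, SE 0.39, adjusted p = 0.0382). Its exercised levels spread widely, and the call was lost without any 1 control or exercised replicate 3 (adjusted p up to 0.133). In this list 2 genes were higher without control replicate 1 or 3, and 0 without control replicate 2 or exercised replicate 3. Lower genes numbered 1 without control replicate 2 and 4 without exercised replicate 2.

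Of 12 tested genes of fatty acid uptake and activation, 1 rose and 1 fell. The class B scavenger receptor gene ninaD, known for carotenoid uptake, had 0, 1 and 0 counts in the control libraries and 20, 23 and 25 counts in the exercised ones. That is 1 count against 68, a depth-scaled ratio of 74.8 with an exact binomial interval of 13 to 3000 that covers counting error only (edgeR adjusted p = 0.00184). Fatp2, a fatty acid transport protein gene, fell from 21.1, 21.6 and 27.2 CPM to 16.2, 12.7 and 15.7 CPM (log2 fold change -0.65, SE 0.14, adjusted p = 0.0171, lost at 0.0586 without exercised replicate 3). The scavenger receptor gene emp did not pass (-0.11, adjusted p = 0.501). Activation genes named here after their values were seen did not pass either. pdgy went from 163 ± 47.4 to 58.6 ± 28.1 CPM without overlap of the groups (-1.48, SE 0.43, edgeR adjusted p = 0.0740). bgm also had a lower mean (-0.80, SE 0.27, adjusted p = 0.0933). Acsf2 (0.075, adjusted p = 0.786) and CG3961 (0.0098, adjusted p = 0.947) hardly moved. Lower genes in this list numbered 2 without exercised replicate 2 and 0 without exercised replicate 3.

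The oxidation pathway behind whd was also counted. Of 31 tested genes of the carnitine shuttle and beta-oxidation, 0 rose and 3 fell, with a median log2 fold change of -0.11. The 9.68% that fell lies near the 8.52% of all tested genes that fell. At an unadjusted p below 0.05, 2 were higher and 6 lower, DESeq2 and limma-voom called 0 higher, and 1 was higher without control replicate 3 or exercised replicate 2. CG4594, a predicted enoyl-CoA isomerase gene, fell (log2 fold change -0.79, SE 0.13, edgeR adjusted p = 0.00637), from 24.8, 31.1 and 29.4 CPM to 18.4, 13.96 and 16.8 CPM. Mcad, the medium-chain acyl-CoA dehydrogenase gene, was at 1.84, 1.75 and 1.60 CPM against 0.287, 0.620 and 0.883 CPM (-1.53, SE 0.40, adjusted p = 0.0349), and its call was lost when any library but exercised replicate 3 was left out (adjusted p up to 0.099). The remaining 28 genes did not pass, among them Echs1, the enoyl-CoA hydratase gene, at 532 ± 32.9 and 512 ± 43.5 CPM (adjusted p = 0.716). The partners of whd in the carnitine shuttle, named here after their values were seen, gave log2 fold changes of -0.24 for CPT2 (adjusted p = 0.146) and 0.021 for colt (adjusted p = 0.917).

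Of 28 tested genes of adipokinetic hormone signalling and its effectors, 4 rose and 3 fell (25% called, median 0.054). HDAC4, a deacetylase that acts with foxo on lipase genes, went from 40.8, 43.1 and 53.7 CPM to 106.7, 120.2 and 106.6 CPM (log2 fold change 1.28, SE 0.12, edgeR adjusted p = 0.000628). The rise of HDAC4 stood beside a rise of CrebB (0.83, adjusted p = 0.0011) and a fall of foxo (-0.66, adjusted p = 0.00309), both transcription factor genes, and each of the 3 calls held with each library left out. The catalytic protein kinase A gene Pka-C1 was at 389 ± 29.8 and 461 ± 10.3 CPM (0.24, adjusted p = 0.0732). The hormone gene Akh, named for its role in the pathway, did not pass in these body wall dissections (-0.12, adjusted p = 0.859). No other tissue was sequenced. Higher calls in this list numbered 2 without control replicate 1, control replicate 2 or exercised replicate 3, and lower calls 1 without exercised replicate 3.

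**Figure D5:**
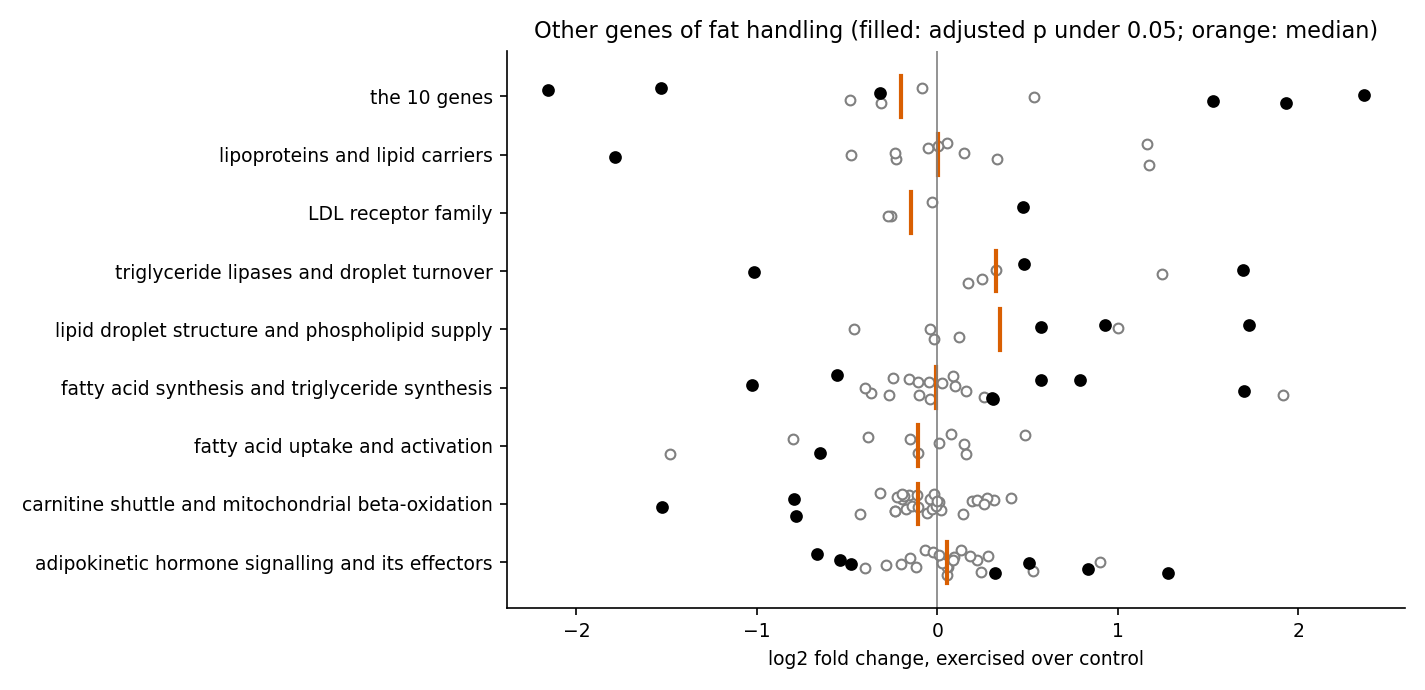
Log2 fold change (exercised over control) of every tested gene in the 8 fixed lists around the 10 genes, without ninaD, whose controls held 1 count. Filled points passed an adjusted p below 0.05 and the orange mark is the list median, which lies between -0.15 and 0.35 in each of the 8 lists and at -0.20 for the 10 genes in the top row.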

How the data were processed

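Single-end reads of polyA-selected mRNA from 6 libraries were aligned by the authors to the Drosophila genome (release 6) with STAR and counted per gene with featureCounts, after FastQC. For tool versions, strandedness and multi-mapping reads, what was done is not stated in the labels or methods used here. The deposited counts are raw whole-number counts per gene, and the authors tested them with DESeq2. No per-sample column was left unused (0).

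Counts were tested with edgeR 4.0.16 (filterByExpr, TMM factors, robust quasi-likelihood fit with condition as the only term) in R 4.3.3, with p-values adjusted by Benjamini-Hochberg over 9127 genes. P-values set the difference between the groups against the spread between 3 libraries a group, with that spread estimated in part from all genes. CPM used TMM-scaled library sizes; length scaling used the union of exons in Ensembl release 115. Symbols and positions came from that annotation for 17200 of 17477 identifiers. Intervals of fold changes are at 95%. The procedure was tested on simulated data. Alternatives were DESeq2 1.42.0, limma-voom (limma 3.58.1), other scalings and filters, a replicate block and each library left out.

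The 10 genes and the gene lists were chosen with earlier results of these data known. Named list genes were those with the smallest adjusted p (up to 3 a list, among those past the threshold) and the gene with the highest CPM. Exceptions are marked, and Akh is a further one. 1 further gene of the oxidation list is counted but not reported here.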

Additional observations from a re-analysis of the deposited data

How the results depend on the processing

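None of the 10 genes changed sign under any alternative. Over all genes, 936 were higher and 778 lower. With a replicate block these counts were 599 and 465, with control replicate 3 as the lone control (chosen after the data were seen) 222 and 199, and with each library left out in turn 469 to 934 and 358 to 847, the lowest without exercised replicate 3 (469 and 358) and next without control replicate 2 (553 and 477). DESeq2 (1152 and 873) and limma-voom (927 and 783) gave like counts. Among the 10 genes, 3 higher and 3 lower in the reported fit, the stricter filter gave 1 higher because AkhR and Agpat2 were not tested there, the lone control gave 0 higher and 1 lower, and leaving out each library gave 2 to 4 higher and 2 to 3 lower. Replicates with the same number did not deviate together (correlations of their deviations from the group means -0.222, 0.00292 and -0.24). The highest correlation, 0.293, was between control replicate 1 and exercised replicate 3. Whether libraries of the groups were paired in another order was not tested. Under the replicate block AkhR (adjusted p = 0.0603) and Acsl (0.0874) were not called, leaving 2 higher and 2 lower. Acsl was also not called with no filter (0.0591) or with the 20 most abundant genes left out (0.0567). In the gene lists, DESeq2 called 8 hormone signalling genes higher and the block 2, against 4. Upper-quartile scaling called 3 synthesis genes higher and 4 lower, against 5 and 2, and 1 gene each of the LDL receptor and droplet lists lower, against 0, and the block called 1 synthesis gene higher. DESeq2 called 3 uptake genes lower, against 1. The lipase list had 4 higher with no filter and 1 with the stricter filter, which also left 0 higher uptake and 0 lower lipoprotein genes.

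AkhR and Agpat2 rest on 5 to 78 counts a library, which limits their precision. An exact permutation test of 3 against 3 libraries cannot go below p = 0.1, so all calls rest on the model fitted across genes.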

Other observations

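Genes with the most similar pattern across the 6 libraries were sought for the 6 genes that passed the test. Over 6772 other genes whose mean reached 5 CPM, the log2 CPM of whd correlated most with that of CG8839 (Pearson r = 0.9995), spi (0.9983), an EGF ligand gene, and BNIP3 (0.9965), a mitophagy receptor gene. BNIP3 was at 136.4, 107.2 and 135.99 CPM in controls and at 27.6, 58.3 and 38.5 CPM in exercised libraries, with exercised replicate 2 nearest to the controls as for whd. LpR1 was followed most closely by AOX3 (0.9977), cDIP (0.9964) and GPHR (0.993), Lsd-1 by CG14131 (0.9972), mbf1 (0.9971) and CG15814 (0.9966), and Agpat2 by lic (0.9971), I-2 (0.9945) and Ubr3 (0.9936). For AkhR the closest was Blos1 (0.9905), and for Acsl it was SmD3 (0.9957). These correlations are a description over 6 libraries in 2 groups and are carried by the difference between the groups. They take no account of the size of the change. AOX3 went only from 107.5, 102.1 and 108.0 CPM in controls to 91.4, 90.8 and 90.7 CPM in exercised libraries, a far smaller fall than that of LpR1. cDIP fell more, from 19.4, 13.8 and 17.1 CPM to 6.60, 6.57 and 5.76 CPM.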
